A study of Mus musculus with 11 samples.

Results

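The acute-phase and complement genes considered here are the transcripts of Orm1, Lcn2, Saa3, Hp, Lbp, Lrg1, Cp, C3 and Cfb, compared between 3 genotypes of mouse epididymal fat. All probe sets annotated to these 9 genes in the deposited table were taken. They were 16 of 45101 probe sets and covered 8 of the 9 genes, with 8 probe sets for Cp, 2 for Lbp and 1 for each of the other 6. No probe set is annotated to C3 in the annotation used, so C3 was not analysed here. All 16 passed the filter on low values, which ranked probe sets by their mean log2 signal and kept the brighter 60% (27022 probe sets).

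Epididymal fat, a visceral depot, came from male C57BL/6 mice aged 3 months on standard chow, and total RNA was hybridized to 1 one-colour Affymetrix array per sample. Wild-type mice (B1+/+) gave 4 arrays and mice lacking the kinin B1 receptor (B1-/-, here knockout) gave 4. The other 3 came from mice labelled aP2B1-B1-/-, a receptor knockout with rescue in fat alone (here fat rescue), so both mutant groups lack the endogenous receptor. The promoter named aP2 is that of Fabp4, which is active in fat cells but is also known to be active in macrophages. The labels call the arrays biological replicates and say no more, so p-values measure the spread between these samples.

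Acute-phase proteins are plasma and secreted proteins whose levels shift during infection, injury or inflammation. The liver makes most of them in response to interleukin-6, interleukin-1 and glucocorticoids, largely through the transcription factors STAT3, C/EBP and NF-kB, and fat cells and other cells of adipose tissue also make several. Complement is a cascade of plasma proteins that marks microbes for uptake and lysis. Its alternative pathway, to which factor B belongs, is of particular interest in fat because adipocytes secrete several of its components.

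The arrays carried the profile of fat. Adipoq, the adipokine adiponectin, read 20989 ± 2816 (SD, n = 4) in wild type, and 11 of 12 adipocyte markers were measured. Of 10 hepatocyte markers 3 were measured, with summed signals of 137 to 263 on any array. Of 12 markers of epididymis and male accessory glands only 8 were on the array, and 1 was measured, at 14.3 to 40.6. Bdkrb1, which encodes the deleted receptor, read 3.70 to 32.2 in wild type, 4.80 to 29.7 in knockout and 57.8 to 73.4 in fat rescue; where its probe set lies relative to the deletion is not given, so the first 2 groups do not check their labels. Wild-type array 1 and fat rescue array 1 stood apart from the rest on the first principal component, at -45.4 and -34.1, where the others lay between -15.6 and 26.5.

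No member passed the threshold of an adjusted p of 0.05 in any comparison. With limma over 12709 genes, 0 of the 8 measured members passed in knockout against wild type, where 0.0393% of all genes did. The count was also 0 in fat rescue against knockout (0% of all genes), in fat rescue compared with wild type (0.0157%) and in the F test over the 3 genotypes (0.0393%). With probe sets tested singly, 0 of the 16 passed in any comparison, where 0.0296%, 0% and 0.0222% of all probe sets did. The member means were lower in 5 of 8 genes in knockout than in wild type (46.3% of all genes), in 5 of 8 in fat rescue than in knockout (47.4%) and in 4 of 8 for fat rescue against wild type (44.3%). At an unadjusted p under 0.05, Orm1 and Lbp were lower in knockout than in wild type, 2 of 8 members where 3.36% of all genes were lower at that level. Against wild type, Orm1 alone was lower in fat rescue at that level, 1 of 8 where the share of all genes was 3.49%. No member was higher at that level, where 3.94%, 2.09% and 4.6% of all genes were in the 3 comparisons in the order above, and none was lower in fat rescue than in knockout, where 1.72% of all genes were. The median log2 difference of the 8 members was -0.10 in knockout against wild type (0.02 for all genes), -0.01 in fat rescue against knockout (0.01) and -0.05 in fat rescue against wild type (0.03). The 3 comparisons share arrays and are not independent of each other.

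**Figure D1:**
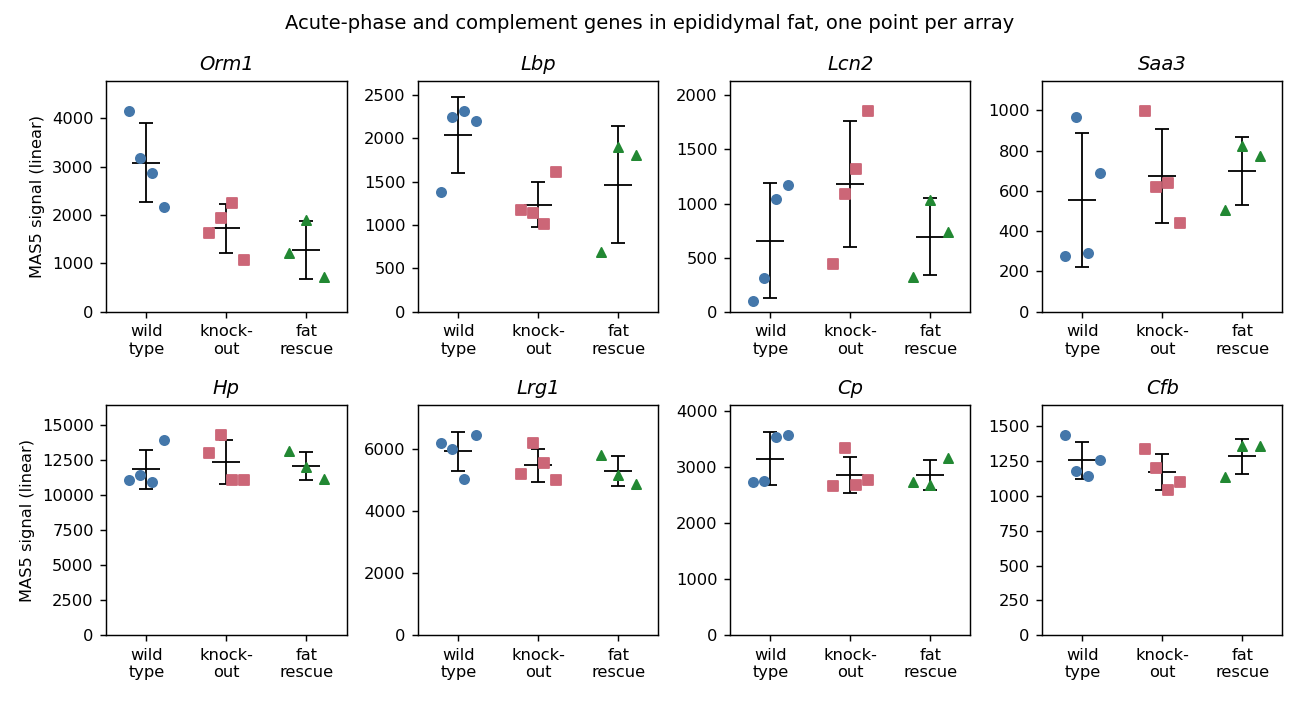
MAS5 signal on a linear axis for the 8 measured members, each with its brightest probe set, by genotype; points are single arrays, bars the mean and SD of 4 wild-type, 4 knockout and 3 fat rescue arrays. Orm1 had its highest mean in wild type (3088) with knockout array 3 above the lowest wild-type array, Lcn2 ranged from 97.9 to 1855 with wide overlap, and Hp, Lrg1, Cp and Cfb stayed within narrow ranges in all 3 groups.

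Orm1 encodes orosomucoid 1 (alpha-1-acid glycoprotein), a positive acute-phase protein that binds drugs and lipids in plasma and is also secreted by adipocytes. Its single probe set read 4151, 3176, 2866 and 2158.0 in the 4 wild-type arrays. In knockout it read 1639, 1946, 2260 and 1066, and in fat rescue 1215, 1907 and 710. All 3 fat rescue arrays therefore lay below all 4 wild-type arrays, and 3 of 4 knockout arrays did; knockout array 3 (2260) exceeded wild-type array 4 (2158.0). Groups without overlap and lower in fat rescue were found for 3.50% of all genes.

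The wild-type mean was 3088 ± 827 (SD, n = 4). Knockout averaged 1727 ± 509 (n = 4) and the fat rescue arrays 1277 ± 601 (n = 3). Fat rescue was below wild type by a log2 difference of -1.35 ± 0.32 (SE), a ratio of 0.393 with a 95% interval from 0.244 to 0.633. Its unadjusted p was 0.000997 and only 36 of 12709 genes had a smaller one, but the adjusted p was 0.319. An exact two-sided permutation test gave p = 0.0286, the smallest that 4 against 3 arrays allow. Knockout was below wild type by -0.85 ± 0.29 (ratio 0.554, 95% interval 0.356 to 0.862; limma p = 0.0127, adjusted p = 0.631; exact permutation p = 0.0571). Fat rescue and knockout differed by -0.50 ± 0.32 (exact permutation p = 0.286, limma adjusted p = 0.998). The 95% interval of -1.18 to 0.19 leaves room for a difference in either direction. Without fat rescue array 3, the lowest of all, the differences were -0.98 from wild type and -0.13 from knockout.

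Orm3, which encodes a closely related orosomucoid and is not a member, showed the same order of group means at a dimmer signal. It read 158.5, 114, 105 and 121 in wild type. The signals were 79.1, 80.9, 73.3 and 37.9 for knockout and 71.6, 62.7 and 45.5 for fat rescue. Every array of both mutant groups was below every wild-type array. Over all genes, groups lower than wild type without overlap were found for 1.86% in knockout and 3.50% in fat rescue. The log2 difference was -0.92 in knockout and -1.06 in fat rescue (limma unadjusted p = 0.003 and 0.002), and neither passed after adjustment (adjusted p of the F test 0.514). Pearson's r between Orm1 and Orm3 over the 11 arrays was 0.88 (Spearman's rho 0.85), given as a description. Orm2, the remaining gene of this family, fell below the filter, with no signal above 31.4. The Orm transcripts are similar in sequence and whether these probe sets also bind the other copies was not tested, so the Orm1 and Orm3 values may not be separate measurements.

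The genes whose profiles over the 11 arrays were most like that of Orm1 were Aifm2, which encodes a flavoprotein oxidoreductase, Rmdn3 and Ldha, the lactate dehydrogenase A chain. Their Pearson r with Orm1 was 0.98, 0.96 and 0.94, and Spearman's rho 0.98, 0.97 and 0.85; they were chosen as the highest of all genes, so no p is given. With the genotype means removed r was 0.95, 0.93 and 0.95. Aifm2 read from 1251 to 1555 in wild type, 993 to 1347 in knockout and 867 to 1182 in fat rescue.

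Cell type markers and RNA quality were read on the same arrays, and no gene of these lists passed. Of 11 adipocyte markers 11 had lower means in knockout and 10 in fat rescue than in wild type (median -0.22 and -0.11), although their summed signals overlapped, at 107874 to 143695 in wild type, 99380 to 135070 in knockout and 107373 to 128889 for fat rescue. Over all genes, means lower than in wild type were found for 46.3% in knockout and 44.3% in fat rescue. The macrophage list had 15 of 15 higher means in knockout and 14 in fat rescue (median 0.35 and 0.47). Its sums were 19042 to 26318 in wild type, 21534 to 39819 in knockout and 27839 to 33129 for fat rescue, which did not overlap wild type. Of 13 mesothelial markers 11 had higher means in knockout and 12 in fat rescue (median 0.18 and 0.38), with sums of 3797 to 5867.5, 5192 to 6818 and 6376 to 7001 in the same order, and again fat rescue did not overlap wild type. At an unadjusted limma p under 0.05, 9 macrophage and 6 mesothelial markers were higher in fat rescue than in wild type, where 4.6% of all genes were. In knockout these counts were 1 and 0, where 3.94% of all genes were higher. The 7 lymphocyte markers summed to 235 to 432, 400 to 671 and 451 to 528, with all 7 means higher in fat rescue. The 3 hepatocyte markers summed to 216 to 263, 177 to 245 and 137 to 206, with all 3 means lower in fat rescue. For lymphocyte and hepatocyte markers too, the fat rescue sums did not overlap those of wild type. How often sums of other genes separate in this way was not computed, so these separations are descriptions. Fibroblast and endothelial sums overlapped between all 3 groups, with 8 of 10 and 5 of 8 means higher in fat rescue than in wild type. Beta-actin signal at the 3' end over that at the 5' end was 1.65 to 1.83 in wild type, 1.53 to 1.69 in knockout and 1.47 to 1.56 for fat rescue, whereas the same ratio of Gapdh overlapped between groups, at 0.918 to 1.03, 0.865 to 1.001 and 0.918 to 0.950. The part of these in the Orm1 difference was not tested. In whole tissue, fewer cells of a type and less RNA per cell cannot be told apart.

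Lbp encodes lipopolysaccharide-binding protein, a secreted acute-phase protein that passes bacterial endotoxin to CD14. Its brighter probe set read 1382, 2244, 2315 and 2203 in wild type. Knockout arrays read 1180, 1142, 1014 and 1613, and fat rescue arrays 688, 1900 and 1808. Apart from wild-type array 1, the wild-type arrays were above all 7 others. Knockout averaged 1237 ± 261 (SD, n = 4) against 2036 ± 438 (n = 4), a log2 difference of -0.71 ± 0.28 (SE; ratio 0.611, 95% interval 0.399 to 0.936; limma p = 0.0269, adjusted p = 0.683; exact permutation p = 0.0571). Fat rescue averaged 1465 ± 675 (n = 3), -0.58 ± 0.31 from wild type (adjusted p = 0.651) and 0.13 ± 0.31 from knockout (adjusted p = 0.998), and its range held all 4 knockout arrays and wild-type array 1. Without fat rescue array 1, the lowest, the difference from wild type was -0.11 and that from knockout 0.61. The same array had the highest summed signal of 8 neutrophil markers (3391, against 442 to 840 in wild type and 408 to 780 in knockout), and the part of this in its Lbp signal was not tested.

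The dimmer Lbp probe set went the same way. It read 112, 167, 141 and 153 in wild type. The signals were 60.3, 78.9, 43.8 and 91.6 for knockout and 48.8, 99.8 and 108 for fat rescue. All 7 arrays of the mutant groups were below the 4 wild-type arrays; over all probe sets the groups did not overlap and were lower in 1.55% for knockout and 3.01% for fat rescue. The log2 differences were -1.10 ± 0.28 in knockout (limma adjusted p = 0.412 over all kept probe sets) and -0.81 ± 0.30 in fat rescue (limma adjusted p = 0.606). When wild-type array 1 and fat rescue array 1 were both left out, a setting chosen after the data had been seen, the brighter probe set passed in knockout against wild type (-0.89, adjusted p = 0.0362), and leaving out wild-type array 1 alone gave the same -0.89 with an adjusted p of 0.620. Over the 24 alternatives the adjusted p for this comparison ran from 0.0362 to 0.885 and the difference from -0.91 to -0.62.

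**Figure D2:**
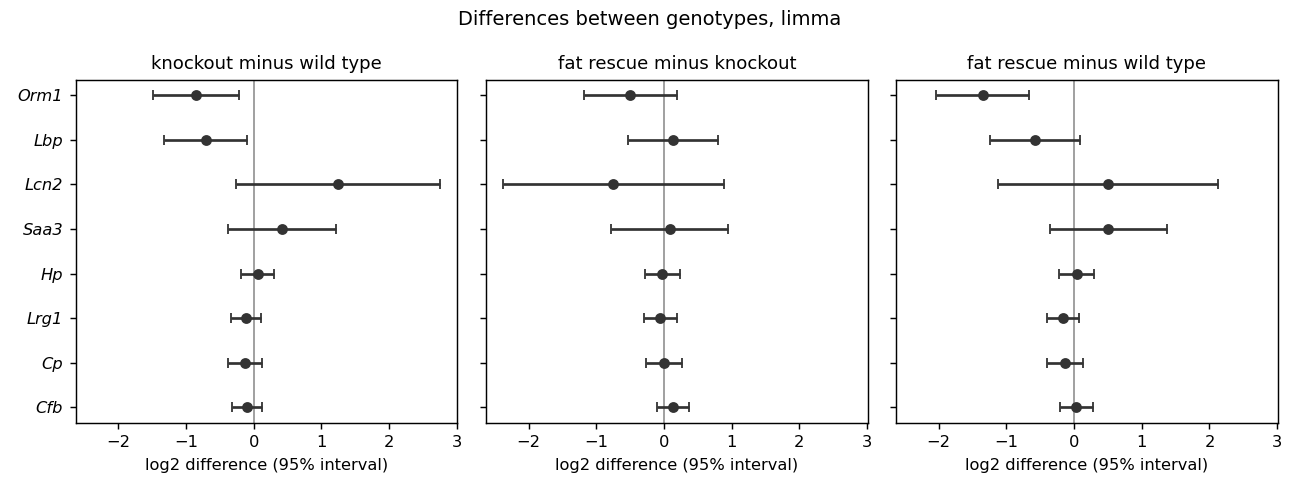
Log2 differences of the 8 measured members between genotypes with 95% intervals from limma, for knockout minus wild type, fat rescue minus knockout and fat rescue minus wild type. The intervals of Orm1 and Lbp lie below 0 in the first panel and that of Orm1 in the last; no member passed after adjustment over 12709 genes, and the intervals of Lcn2 are the widest.

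Lcn2 and Saa3 varied more between arrays of the same genotype than between genotypes. Lcn2 encodes lipocalin 2, a secreted protein that starves bacteria of iron by binding their siderophores and that is made by epithelia, neutrophils, macrophages and adipocytes. Its probe set read 97.9, 314, 1047 and 1174 in wild type. Knockout arrays read 445, 1090, 1323 and 1855, and fat rescue arrays 319, 1029 and 736. The highest array exceeded the lowest 18.9-fold, and all 3 groups overlapped. Its SD within genotypes was 1.24 on the log2 scale, larger than that of 98.9% of all genes, whose median was 0.22. The mean was 1178 ± 584 (SD, n = 4) in knockout against 658 ± 532 (n = 4) in wild type, a log2 difference of 1.25 ± 0.70 (adjusted p = 0.717; exact permutation p = 0.200), and 0.52 without wild-type array 1. In fat rescue it was 695 ± 357 (n = 3), 0.50 ± 0.75 from wild type (adjusted p = 0.890) and -0.75 ± 0.75 from knockout (adjusted p = 0.998); without wild-type array 1 the former turned to -0.22.

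Saa3 encodes serum amyloid A3, the form of this acute-phase apolipoprotein that mouse adipocytes and macrophages make outside the liver. It read 277, 968, 294 and 687 in wild type. The signals were 996, 618, 637 and 441 for knockout and 505, 821 and 772 for fat rescue. The groups overlapped throughout, and the SD within genotypes was 0.65 on the log2 scale, above that of 93.1% of genes. Knockout was 0.42 ± 0.37 (SE) above wild type (limma adjusted p = 0.810) and fat rescue 0.50 ± 0.40 (adjusted p = 0.771). The arrays low in Lcn2 were not regularly those low in Saa3. Pearson's r between them was 0.19 and Spearman's rho -0.14, and between Lcn2 and Orm1 r was -0.41 and rho -0.26, as descriptions over 11 arrays.

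**Figure D3:**
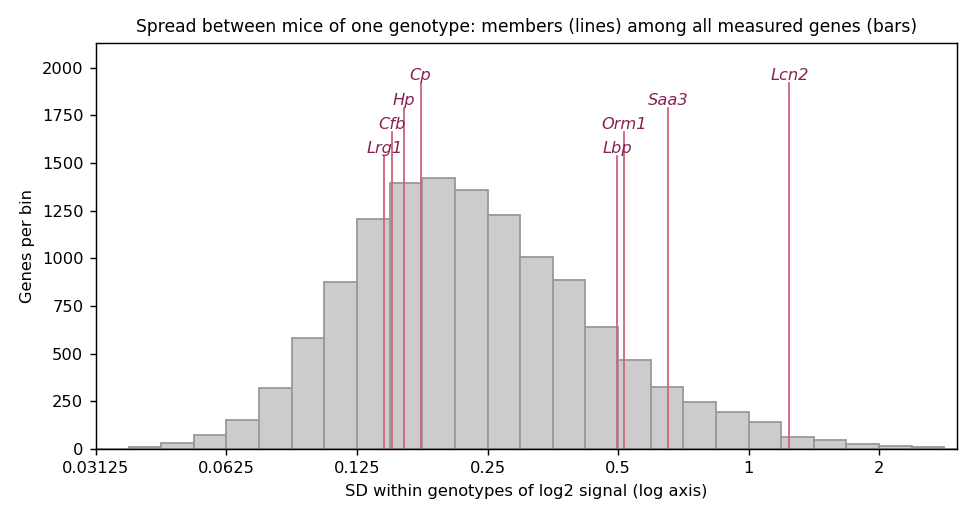
Bars count all 12709 measured genes by the SD of their log2 signal within genotypes, on a log axis; lines mark the 8 measured members. Lrg1, Cfb, Hp and Cp lie at 0.14 to 0.18, below the median of 0.22, whereas Lbp, Orm1, Saa3 and Lcn2 lie between 0.50 and 1.24.

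The stretches before the transcription starts of this variable pair are shown because both genes are known targets of C/EBP factors in inflammation. They come from a table of RefSeq promoters on GRCm38.p6, in which 4 of the 8 measured members were matched; Orm1, Lbp, Hp and Cfb were not. Each run covers the 250 bases before the start, 5′ to 3′ on the gene's strand, at chr2:32387740-32387989 (minus strand) for Lcn2 and chr7:46715677-46715926 (minus strand) for Saa3. Capitals mark matches to the C/EBP motif TTNNGNAA on either strand.
Lcn2: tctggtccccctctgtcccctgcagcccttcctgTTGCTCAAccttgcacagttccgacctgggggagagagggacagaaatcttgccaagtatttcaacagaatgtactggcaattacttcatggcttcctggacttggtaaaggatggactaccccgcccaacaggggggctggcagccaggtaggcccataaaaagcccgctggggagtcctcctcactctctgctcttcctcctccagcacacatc
Saa3: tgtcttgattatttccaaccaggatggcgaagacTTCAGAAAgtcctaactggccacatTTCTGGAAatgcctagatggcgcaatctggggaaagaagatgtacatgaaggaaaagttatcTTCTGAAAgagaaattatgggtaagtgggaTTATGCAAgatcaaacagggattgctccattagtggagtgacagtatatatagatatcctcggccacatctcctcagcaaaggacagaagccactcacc
The Lcn2 window held 1 match, from 216 to 209 bases before the start, and the Saa3 window held 4, of which the nearest lay 99 to 92 bases before it. Of 32851 promoter windows of the same length 36.8% held at least 1 such match. The STAT motif TTCNNNGAA, the glucocorticoid receptor motif, the NF-kB motif and the sequence TATAAA were searched on both strands too, and were in 7.02%, 0.387%, 7.25% and 12.4% of windows. None of these 4 was in either window, and the Lrg1 window held none of the 5 motifs. Each window of Cp, the remaining matched member, held 1 C/EBP match. The Cp window at chr3:19956999-19957248 also held 2 overlapping matches to TATAAA, on opposite strands. They lay 27 to 22 and 25 to 20 bases before the start. A match is a run of letters and not a measured binding site.

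Krt8, a keratin of simple epithelia and mesothelium, had the profile most like that of Lcn2. It read 83.1, 193.5, 468 and 592 in wild type. Knockout arrays read 244, 515, 502 and 766, and fat rescue arrays 217, 568 and 319, in close to the same order of arrays as Lcn2. Pearson's r was 0.99 and Spearman's rho 0.91, and r was 0.99 with the genotype means removed; as the highest of all genes it has no p. Ddit4l and Dnajc22 came next, at r of 0.98 and 0.97, and Dnajc22 was dim, at 2.90 to 93.1. Among the 13 mesothelial markers Krt18, the keratin that pairs with Krt8, was near at r = 0.96 and rho = 0.89, and Krt19 had r = 0.71 and rho = 0.63. The other 10 lay between r of -0.49 and 0.46 and rho of -0.36 and 0.19, among them Upk3b and Msln, defining markers of mesothelium, at r of 0.43 and 0.19. The 8 neutrophil markers had r with Lcn2 between -0.55 and 0.33 and rho between -0.62 and 0.32. S100a8, S100a9 and Ngp read 1404, 888 and 659.5 in fat rescue array 1 and at most 321, 165 and 75.9 in the other 10 arrays, and Lcn2 was low in fat rescue array 1, at 319.

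**Figure D4:**
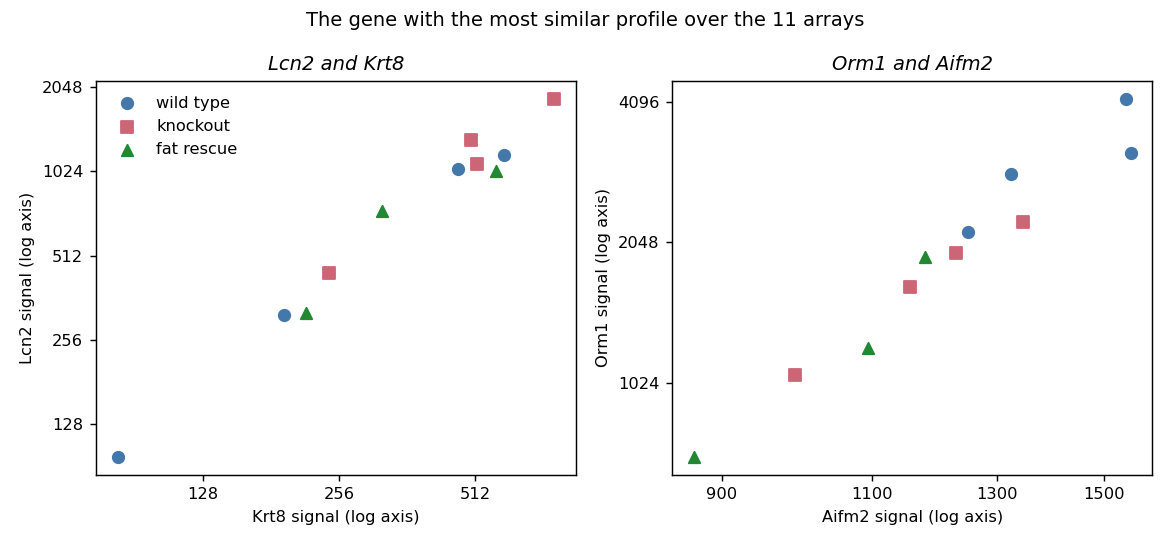
Signal of Lcn2 against Krt8 and of Orm1 against Aifm2, both axes logarithmic, one point per array of the 3 genotypes. The arrays of all genotypes fall along one course in both panels (r = 0.99 and 0.98 on the log2 scale, chosen as the highest of all genes).

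Hp, Lrg1, Cp and Cfb differed little between arrays of the same genotype and between genotypes. Hp encodes haptoglobin, which binds free haemoglobin, and its wild-type mean was 11845 ± 1391 (SD, n = 4), against 12355 ± 1586 (n = 4) for knockout and 12110 ± 996 (n = 3) for fat rescue. The 3 groups covered nearly the same range, from 10968 to 14308 over all arrays. The log2 difference from wild type was 0.06 in knockout (95% interval -0.18 to 0.30) and 0.04 in fat rescue (-0.23 to 0.30), which bounds a change in knockout to ratios between 0.880 and 1.23. Lrg1, which encodes leucine-rich alpha-2-glycoprotein, a modulator of TGF-beta signalling in blood vessels, read 5930 ± 626 in wild type against 5491 ± 533 for knockout and 5293 ± 489 for fat rescue. Its log2 differences from wild type were -0.11 ± 0.10 (SE) and -0.16 ± 0.11 (exact permutation p = 0.343 and 0.200, limma adjusted p = 0.819 and 0.730). Both 95% intervals included 0, at -0.33 to 0.11 in knockout and -0.40 to 0.08 in fat rescue.

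Cfb encodes complement factor B, the serine protease of the alternative pathway convertase, and was the complement member that could be measured. It read 1436, 1175, 1145 and 1256 in wild type. The signals were 1336, 1198, 1044 and 1098 for knockout and 1135, 1355 and 1356 for fat rescue, so that each group covered much of the same range. The log2 differences were -0.10 ± 0.10 in knockout against wild type, 0.13 ± 0.11 in fat rescue against knockout and 0.03 ± 0.11 in fat rescue against wild type (adjusted p = 0.838, 0.998 and 0.960).

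Cp encodes ceruloplasmin, the copper-carrying ferroxidase of plasma. Its brightest probe set read 2722, 2752, 3527 and 3569 in wild type. Knockout arrays read 2661, 3339, 2683 and 2762, and fat rescue arrays 2727, 2682 and 3159. The groups overlapped, with log2 differences from wild type of -0.13 ± 0.11 in knockout and -0.13 ± 0.12 in fat rescue (adjusted p = 0.810 and 0.817). The 8 probe sets did not all point one way. In knockout against wild type 5 had lower means, by up to -0.13, and 3 had higher ones, at 0.19, 0.30 and 0.92. The last is the dimmest, at 27.7 to 58.5 in wild type, 55.1 to 87.1 in knockout and 37.9 to 58.5 in fat rescue, where the arrays' median signals were 41.3 to 48.8. Its unadjusted p was 0.00516 and its adjusted p 0.536. With the mean of the probe sets in place of the brightest, Cp was 0.11 higher in knockout.

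Other genes of the same systems, from lists that the members are not part of, gave no call either. Of 30 further acute-phase genes 27 were on the array and 10 were measured, 3 with higher and 7 with lower means in knockout than in wild type (median -0.16; 0.02 for all genes), and 0 passed. Beside Orm3, F3, the tissue factor that starts coagulation, averaged 1002 ± 243 (SD, n = 4) in wild type against 798 ± 174 (n = 4) for knockout and 621 ± 53.7 (n = 3) for fat rescue (log2 -0.66 from wild type). Mt1, a metal-binding metallothionein, read 5817 ± 1062, 4578 ± 488 and 4687 ± 700. Ptx3, the long pentraxin, went the other way at a dim signal (27.8, 42.3 and 62.1). Fth1, the ferritin heavy chain and the brightest of the list, read 16711 ± 464, 15826 ± 1397 and 16243 ± 644. The F test gave adjusted p of 0.678, 0.776, 0.763 and 0.922 for these 4 genes.

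Of 39 further complement genes 31 were on the array and 23 were measured, 14 with higher and 9 with lower means in knockout than in wild type (median 0.06), and 0 passed. Cd59a, which encodes an inhibitor of the membrane attack complex, averaged 1591 ± 157 (SD, n = 4) in wild type against 1141 ± 146 (n = 4) for knockout and 1238 ± 136 (n = 3) for fat rescue. Every knockout array was below every wild-type array, as for 1.86% of all genes (log2 -0.48, limma adjusted p = 0.355). C2, the counterpart of factor B in the classical pathway, read 2240 ± 213, 1736 ± 40.5 and 2040 ± 379, also without overlap between wild type and knockout (log2 -0.36, F test adjusted p = 0.684). The C1q chain genes C1qa, C1qb and C1qc, which macrophages make, had means of 2055, 2081 and 1745.0 in wild type and 2508, 2456 and 2078 in fat rescue (log2 0.30, 0.25 and 0.25), and none passed. The macrophage markers given above had higher means too, and their part in the C1q values was not tested.

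The cytokines, receptors and transcription factors that drive the acute phase also gave 0 calls, with 28 of 33 genes measured. Il1b, Osm and Lif were dim, with means between 28.8 and 40.8 in the 3 groups, and Socs3, the feedback inhibitor induced by STAT3, read 85.7 ± 20.3 (SD, n = 4), 86.7 ± 4.99 (n = 4) and 94.4 ± 20.0 (n = 3). Stat3 itself read 1700 ± 151, 1806 ± 39.7 and 1753 ± 211. Cebpb, which encodes a C/EBP factor of the acute phase, read 1541 ± 305 in wild type against 1457 ± 141 for knockout and 1135 ± 64.4 for fat rescue, where all 3 arrays were below those of both other groups (log2 -0.42 from wild type and -0.36 from knockout; F test adjusted p = 0.684). Lower in fat rescue without overlap were 3.50% of all genes against wild type and 2.09% against knockout. Relb, an NF-kB subunit, had a higher mean in fat rescue than in wild type (161 ± 3.72 and 117 ± 9.60, log2 0.46, F test adjusted p = 0.754). Nr3c1, the glucocorticoid receptor, read 1939 ± 71.7, 1923 ± 197 and 2215 ± 117.

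None of 40 relations between a member and the mean log2 signal of a cell type list over the 11 arrays passed after Benjamini-Hochberg adjustment (permutation tests, two-sided, lowest adjusted p = 0.214). Orm1 ran against the mesothelial list, with r = -0.76 (permutation p = 0.00553, adjusted p = 0.214) and rho = -0.74 (p = 0.0126, adjusted p = 0.304). Without wild-type array 1 and fat rescue array 3, the farthest from the list's median, r was -0.58, and it was -0.60 with the genotype means removed. Orm1 also ran against the macrophage list, with r = -0.63 (permutation p = 0.0385, adjusted p = 0.257) and rho = -0.69 (p = 0.0228, adjusted p = 0.304). That r was -0.68 without wild-type array 1 and knockout array 1, and -0.30 with the genotype means removed. Saa3 ran with the macrophage list at r = 0.69 (permutation p = 0.0189, adjusted p = 0.214) and rho = 0.65 (p = 0.0335, adjusted p = 0.335). That r was 0.40 without wild-type array 1 and knockout array 1, and 0.63 with the genotype means removed. Leaving out the arrays farthest from the median also narrows the range, so the drop does not show what the relation rests on. The relation of Saa3 to the fibroblast and preadipocyte list was r = 0.65 (permutation p = 0.0268, adjusted p = 0.214; rho 0.69, p = 0.0228, adjusted p = 0.304) and r was 0.13 without the same arrays. Lbp ran against the neutrophil list at r = -0.65 (permutation p = 0.0261, adjusted p = 0.214; rho -0.36, p = 0.271, adjusted p = 0.637), and r was -0.10 without knockout array 1 and fat rescue array 1. Lcn2 ran with the mesothelial list at r = 0.76 (permutation p = 0.0128, adjusted p = 0.214) but rho was 0.40 (p = 0.224, adjusted p = 0.637), and r was 0.45 without wild-type array 1 and fat rescue array 3.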

How the data were processed

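Epididymal fat RNA of 4 wild-type, 4 knockout and 3 fat rescue samples was hybridized to one-colour Affymetrix arrays. The deposited values are the authors' linear signal intensity of each probe set; the submitters' processing notes name GCOS 1.3 and MAS5. A mean trimmed by 2% at each end was 200 on every array, so arrays had been scaled to a common level. Detection calls were not used here. The medians of the arrays lay within 0.24 log2 units, under the limit of 0.5 for further normalization. They did follow genotype, at 41.3 to 45.1 in wild type, 46.5 to 48.8 in knockout and 45.6 to 46.6 in fat rescue. One value of 0 was set to 0.1 before log2 was taken.

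Probe sets with 1 gene symbol in the platform annotation (34945 of 45101; 932 had several, 9160 none, 64 were controls) were used. The brighter 60% were kept, each gene was represented by its brightest probe set (12709 genes), and all 11 arrays were fitted together in R 4.3.3 by limma 3.58.1, with a trended eBayes prior and genotype as the only factor. Tests were two-sided, with Benjamini-Hochberg adjustment over all genes or, for single probe sets, over all 27022 kept. Exact permutation tests used log2 signals; relations used 100000 permutations. Steps were tested on simulated data. The members and gene lists were chosen with earlier results of these data known. Genes named are the members, up to 4 per list with the smallest F test p and the 3 brightest, the 3 most correlated with a member, and Bdkrb1. Upk3b, Msln, Krt18, Krt19, S100a8, S100a9, Ngp, Orm2, the C1q genes, Stat3, Socs3, Il1b, Osm and Lif were named after their values were seen. The alternatives were other normalizations, pseudocount, filters, probe set rules, variance models, array weights, fits of 2 groups, a replicate block and leaving out each array. The number of arrays limits the precision; no batch is given.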

Additional observations from a re-analysis of the deposited data

Results flagged for a closer look

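Within a group of 4 arrays, 2 of 16 tests for an array far from the others picked one out, where chance picks about 1 in 20. Lbp in wild-type array 1 read 1382.4, far below the other wild-type arrays at 2203 to 2315; this array also stood apart on the first principal component. Cp in knockout array 2 read 3338.6, above the other knockout arrays at 2661 to 2762.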

How the results depend on the processing

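The count of members past the threshold stayed 0 in all 3 comparisons under every alternative but one. It was 1 in knockout against wild type (Lbp) without wild-type array 1 and fat rescue array 1, a setting chosen with the results known; the cause was not tested. Orm1 kept its direction in all 24 alternatives of each comparison and Lbp in those against wild type.

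Over all genes 5 passed in knockout against wild type. The count was 8 with probe sets tested singly, 2 without trend or with only the groups compared, 10 with median centring, 14 without the pair of arrays that stood apart, and 2 to 14 when single arrays were left out. In fat rescue against wild type it was 2, and 6 with probe sets tested singly, with the upper 40% of probe sets or without that pair, 7 with array weights, 5 with median centring, and 1 without trend, with robust eBayes, with probe sets averaged per gene or with only the groups compared. Leaving out single arrays gave 1 to 8. Fat rescue against knockout gave 0 in every alternative.

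The replicate number as a block gave 8 genes in knockout against wild type and no member call. Same-numbered arrays deviated together with r of -0.14 to 0.35, and differently numbered ones with r of -0.31 to 0.28. The highest, 0.35, was between wild-type array 1 and fat rescue array 1. Lcn2 was lowest in array 1 of each genotype, at 97.9, 445 and 319. Arrays were not treated as pairs, and whether those of one number share a batch was not tested. With the block Cp turned to 0.0251 in fat rescue against knockout. There Lcn2 moved from -0.75 in the main fit to -0.37 with the block.

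Several member differences changed sign, most of them near-zero. Larger ones were Lcn2 in fat rescue against wild type, at 0.50 in the main fit, and Lbp in fat rescue against knockout, at 0.13. Median centring, which moved the median of all genes from 0.02 to -0.13 in knockout against wild type, turned Hp to -0.0893 there, Hp and Cfb to -0.0666 and -0.0686 in fat rescue compared with wild type, and Hp and Cp to 0.0226 and 0.0459 in fat rescue against knockout. Quantile normalization gave Cp 0.00016 there, and the mean of its probe sets 0.11 in knockout against wild type. Without the pair of arrays Cp was 0.0312 in fat rescue against knockout and Hp -0.0552 against wild type. Leaving out single arrays gave, in fat rescue against knockout, Hp -0.0841 to 0.0502, Lbp -0.13 to 0.61, Lrg1 -0.12 to 0.00953, Cp -0.0748 to 0.0762 and Saa3 -0.0973 to 0.30; for fat rescue against wild type, Cfb -0.00943 to 0.12, Hp -0.0250 to 0.12 and Lcn2 -0.22 to 0.98; and in knockout against wild type, Hp -0.0145 to 0.14. With 3 or 4 arrays a group, differences within these spreads were not detectable.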
